A study of Mus musculus with 26 samples.

Results

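The RNA of NIH3T3 cells after 7 h of KCl was set directly against that after 2 h of KCl, across all genes of the deposited table. NIH3T3 is an established line of mouse embryonic fibroblasts, and added KCl makes the medium hypertonic. The comparison rests on 4 of the 26 libraries of the series, 2 at each time, chosen by their labels alone. The series measured polyadenylated RNA in 16 libraries and ribosome footprints in 10, under heat, H2O2 and KCl. The 2 RNA libraries of the untreated control that H2O2 and KCl share served to tell transient, sustained and late changes apart. A change at 2 h and one at 7 h against that control thus share libraries. The control is not a term of the direct comparison, but its libraries entered the same fit, through the gene filter, the scaling and the spread. The labels give no KCl dose and no control for the hours in culture, so time in KCl and time in culture cannot be told apart. They also do not say that the replicates came from separate cultures, so the p-values measure the spread between these libraries, which may be technical.

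Cells in hypertonic medium lose water and shrink, and they first recover volume by taking up ions. Over hours they replace part of these ions with organic osmolytes such as sorbitol, betaine, myo-inositol and taurine. The transcription factor NFAT5 (TonEBP) drives much of this slower programme through promoter and enhancer elements called TonE, while MAP kinases activated by shrinkage switch on immediate early genes within minutes to hours. Hyperosmotic stress is also known to let transcription run past the ends of genes, which gives downstream-of-gene transcripts (DoGs) that can enter the next gene (read-in).

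Of 9 osmotic genes 7 rose between 2 h and 7 h, and the betaine transporter gene Slc6a12, at 0 or 1 count until 2 h, rose the most of them. Genes of the early stress programme, such as Fosl1, Atf3, Dusp5 and Ctgf, fell back over the same hours. A large set of genes encoding zinc finger proteins had dropped at 2 h and were back near or above their control level at 7 h. The nuclear RNA Neat1 had dropped too, and at 7 h it was partly back but still below the control. Some abundant genes, among them Gjb2 and Ccnd1, were within 2-fold of the control at 2 h and fell late.

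The 6 libraries held 24441877 to 45244430 expected counts, and 13256 of the 20430 genes in the table had enough counts to test. Replicates correlated at a Pearson r of 0.994 to 0.996 across genes, and the replicates of every group differed by more than sampling noise. All 10 fibroblast markers checked reached at least 1 CPM (counts per 1000000) in some library. For the markers of this paragraph CPM is of the library total as it stands, and elsewhere it is after scaling between libraries. The muscle factors Myod1 and Myog, Adgre1 (macrophages), Cd3e (T cells) and Rbfox3 (neurons) were at 0 in all 6. Other markers of those lists did reach 1 CPM, namely Cd68 and Itgam (immune), Map2 (neural), Cdh1 and Cldn4 (epithelial) and Kdr (endothelial). The fibroblast markers summed to 13310 to 13630 CPM in the control, 12660 to 13790 at 2 h and 9972 to 10750 at 7 h. The scaling factors were 1.069 and 1.067 in the control and 0.9302 and 0.927 at 7 h, so scaled sums would drop less. The part of this drop in the results was not tested. The summed markers of the other cell types were at most 38.6 CPM in any library. Epithelial markers went from 1.15 to 1.30 CPM in the control to 1.75 to 1.82 at 2 h and 5.45 to 6.18 at 7 h, and endothelial markers from 1.03 to 1.79 to 2.82 to 3.19 and 6.58 to 6.96, and their part in the results was not tested either.

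With a quasi-likelihood test in edgeR over the 10 RNA libraries of the H2O2/KCl experiment, and an adjusted p (Benjamini-Hochberg) under 0.05, 9120 genes (68.8%) differed between 7 h and 2 h of KCl. Of the tested genes 35.1% were called higher at 7 h and 33.7% lower, and the median change over all of them was 0 on the log2 scale. Calls past 2-fold numbered 2896 (21.8%), with 1576 higher (11.9%) and 1320 lower (9.96%). Both 7 h libraries lay above both 2 h libraries for 41.1% of tested genes and below both for 40.6%. Because so many genes differed, the counts for the gene lists below are read against these shares. In these bulk libraries, fewer cells that express a gene and less of its RNA per cell cannot be told apart.

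Slc6a12, on chromosome 6 (121342574 to 121365773 in GRCm38.p6), encodes the betaine transporter that imports betaine as an osmolyte. Its expected counts were 1 and 0 without KCl, 0 and 1 at 2 h, and 233 and 173 by 7 h. The gene was thus at 0 or 1 count in 4 libraries and clearly counted in both 7 h libraries. The ratio of the 406 summed counts at 7 h to the 1 count at 2 h, scaled for depth, was 397, and its exact 95% interval of 70.8 to 15700 covers counting error only. The edgeR test gave an adjusted p of 7.67e-10. Slc6a12 was too low on average for the rule that chose most named genes and was picked from the osmolyte list after its values were seen.

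The promoter of Slc6a12 and those of Nupr1 and Hsph1, which are not on the osmotic list and were picked for a match among genes that rose at both steps, show the TonE core. Its letters, TGGAAA, were searched on both strands and are in capitals below. Sequences are from RefSeq (GRCm38.p6), 250 bases before to 50 bases after an annotated start, written 5′ to 3′ along the gene. Slc6a12 has 5 starts in the table, and the 1 shown, chr6:121342324-121342623 on the plus strand, is the only one of them with a match, 75 bases before the start. Nupr1, on the minus strand at chr7:126625421-126625720, was the leading gene with a match among those that rose at both steps, ranked by the smaller step, and holds a pair of cores in opposite orientation. Hsph1, on the minus strand at chr5:149636287-149636586, followed it and has its match 40 bases after the start. Hsph1 is also on the list of chaperones of the heat shock factor HSF1. No HSF1 site was among the letters searched, so the marked letters may also be part of one.
Slc6a12: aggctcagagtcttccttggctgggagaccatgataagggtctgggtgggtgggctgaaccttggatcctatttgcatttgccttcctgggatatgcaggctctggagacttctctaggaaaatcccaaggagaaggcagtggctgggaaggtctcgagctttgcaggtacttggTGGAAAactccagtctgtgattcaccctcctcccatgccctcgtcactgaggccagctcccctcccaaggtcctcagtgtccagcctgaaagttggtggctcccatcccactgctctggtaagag
Nupr1: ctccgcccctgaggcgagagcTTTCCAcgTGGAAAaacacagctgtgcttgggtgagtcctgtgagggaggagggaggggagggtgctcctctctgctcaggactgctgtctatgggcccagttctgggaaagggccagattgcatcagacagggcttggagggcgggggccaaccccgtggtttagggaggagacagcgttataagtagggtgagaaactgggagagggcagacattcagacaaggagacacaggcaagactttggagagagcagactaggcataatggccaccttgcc
Hsph1: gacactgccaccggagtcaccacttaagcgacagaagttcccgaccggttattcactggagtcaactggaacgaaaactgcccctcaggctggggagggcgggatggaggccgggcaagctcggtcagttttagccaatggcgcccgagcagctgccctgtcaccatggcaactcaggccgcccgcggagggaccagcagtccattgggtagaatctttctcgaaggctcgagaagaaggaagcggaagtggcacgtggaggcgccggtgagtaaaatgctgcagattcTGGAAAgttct

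Of the 54 promoters in the table that belong to genes rising at 2 h and again by 7 h, 20 (37.0%) held the letters TGGAAA. The share was 16.7% over the 13078 promoters of all genes tested and 21.4% over all 32851 promoters of the table. Counted by gene, 15 of 38 (39.5%) of these genes had a match in at least 1 promoter, against 19.6% of the 10236 tested genes with a promoter in the table. Among the genes that rose late, 111 of 556 promoters held it, and among the osmotic genes as a list 3 of 16 (18.8%), near the share of all genes tested. These shares are descriptions, several starts of 1 gene overlap in sequence, and a match is not a site of NFAT5 binding.

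Akr1b3, aldose reductase, which makes sorbitol from glucose, had 121 and 121 CPM in the control, 469 and 451 at 2 h and 2639 and 2650 by 7 h. Its 3 groups of libraries did not overlap and stood in the order of time. The change from 2 h to 7 h was 2.52 ± 0.06 on the log2 scale (± standard error; edgeR, adjusted p = 2.65e-12). Hspa4l, a chaperone of the HSP110 family induced by osmotic stress, had 242 and 258 CPM in the control, 440.1 and 544 at 2 h, then 2210 and 2276 at 7 h, a log2 change of 2.19 ± 0.09. The water channel gene Aqp1 had 475 and 452 CPM at 2 h and 1067 and 1075 by 7 h, a change of 1.21 ± 0.06, and the taurine transporter gene Slc6a6 rose by 0.81 ± 0.08. In each of these genes both 7 h libraries were above both 2 h libraries and both controls.

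The list of 9 osmotic genes (Nfat5, osmolyte genes and others known from hypertonic cells) had 7 called higher and 1 called lower, with a median log2 change of 0.81. Nfat5 itself had 137 and 144 CPM in the control, 478 and 655 at 2 h, then 539 and 570.1 at 7 h. It was thus above the control at both times, and its 2 h and 7 h libraries overlapped (log2 change -0.03 ± 0.10, adjusted p = 0.81). Slc5a3, the myo-inositol transporter, was already up at 2 h and gained 0.34 ± 0.12, while Sgk1, a kinase that regulates ion transport, gained 0.33 ± 0.07. Slc38a2, the amino acid transporter SNAT2 that supplies osmotically active amino acids, was the 1 member that fell. It had 541 and 539 CPM in the control, 3069 and 3545 at 2 h and 2033 and 2166 by 7 h, a change of -0.66 ± 0.08 from a high level.

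Stc1, the secreted hormone stanniocalcin 1, had 1.51 and 2.15 CPM in the control, 7.16 and 7.43 at 2 h, then 100.4 and 109 at 7 h. Its 3 groups did not overlap, and at 3.84 ± 0.10 it had the largest rise among genes averaging 3 or more in log2 CPM once zinc finger genes and clone-like symbols are set aside. Tnxb, which encodes the matrix protein tenascin X, had 3.72 and 3.01 CPM in the control and 3.95 and 3.18 at 2 h, so these groups overlapped. It then stood at 44.1 and 41.5 at 7 h (log2 change 3.59 ± 0.12). Tns4 (tensin 4, at focal adhesions) rose at both steps, with a change of 2.83 ± 0.10 from 2 h to 7 h. Slc1a3, a glutamate transporter, did so too, by 2.06 ± 0.07.

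**Figure D1:**
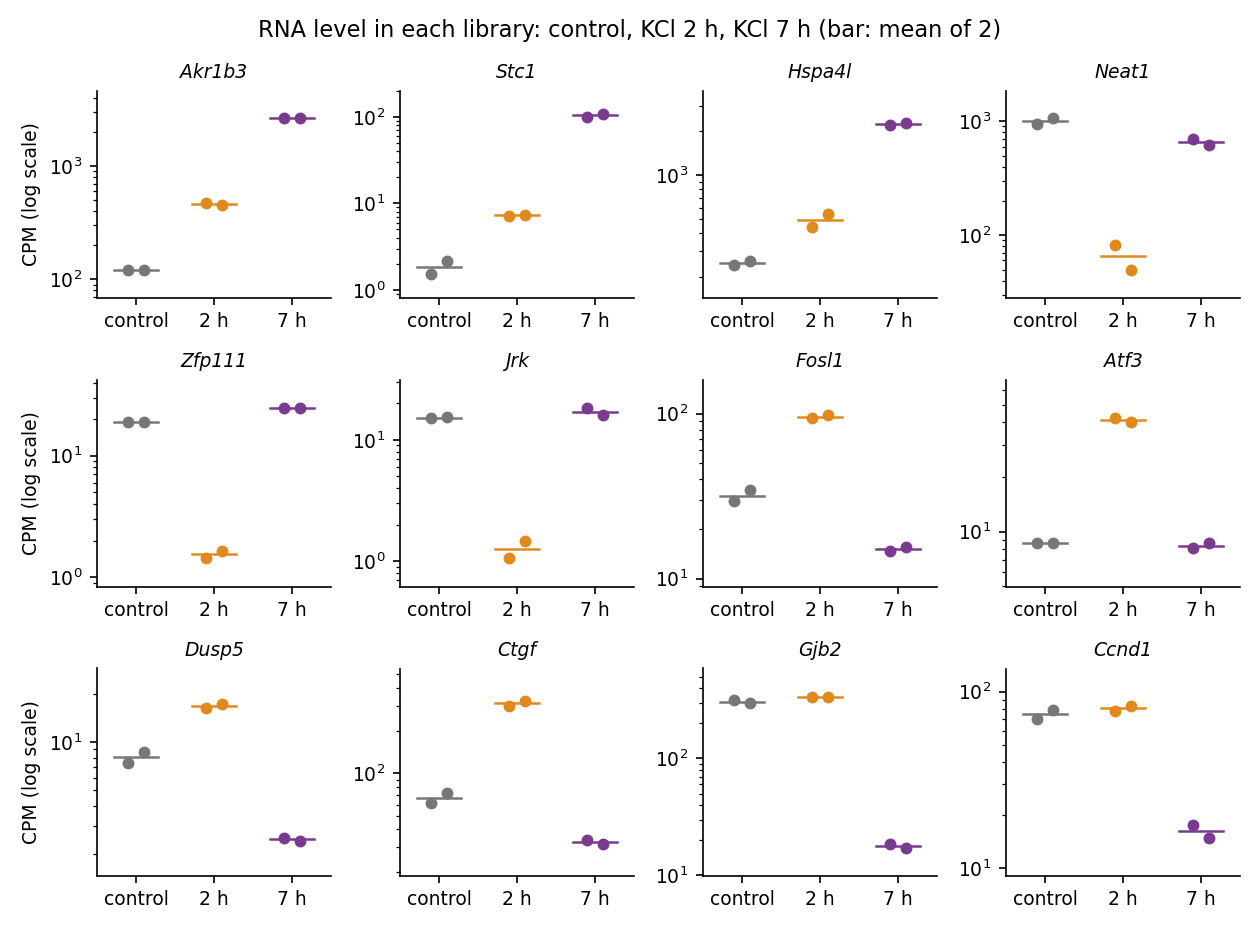
RNA level of 12 genes in each library, in CPM on a log axis, for the control, 2 h and 7 h of KCl; points are libraries and bars the mean of 2. Akr1b3, Stc1 and Hspa4l climb at both steps, Neat1, Zfp111 and Jrk dip at 2 h, Fosl1, Atf3, Dusp5 and Ctgf peak at 2 h, and Gjb2 and Ccnd1 are low at 7 h.

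Ion transport genes of cell volume control were split in RNA, with 12 of 26 tested members called higher and 11 lower. In footprints they were not split, with 9 of 24 called higher and 0 lower (background 12.1% higher), at a median of 0.55. The LRRC8 family, whose proteins form the volume-regulated anion channel, moved in both directions. Lrrc8a, the obligatory subunit, had 57.8 and 68.2 CPM in the control, 39 and 34.5 at 2 h and 90.4 and 96.8 by 7 h (log2 change 1.35 ± 0.10). Lrrc8e went the same way, by 1.31 ± 0.10. Lrrc8b had 30.5 and 28.9 CPM in the control, 24.3 and 28.7 at 2 h, then 6.57 and 6.18 at 7 h, and fell by 2.05. The calcium-activated potassium channel gene Kcnn4 fell as well (-1.18 ± 0.08).

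Of 26 immediate early genes tested, 23 were called lower at 7 h than at 2 h and 2 higher, and 17 fell past 2-fold (background 33.7% lower, 9.96% past 2-fold). The list's median change was -1.33. By the control, 11 of them had risen past 2-fold at 2 h and fallen past 2-fold by 7 h. Fosl1 (FRA1, an AP-1 subunit) had 29.4 and 34.3 CPM in the control, 94 and 97.8 at 2 h and 14.8 and 15.5 by 7 h. The 3 groups did not overlap, and the 7 h libraries lay below the control (log2 change -2.66 ± 0.08, adjusted p = 1.55e-11). Atf3, a stress-induced repressor, had 8.67 and 8.65 CPM in the control, 42.2 and 40.2 at 2 h, then 8.11 and 8.65 at 7 h, so control and 7 h overlapped (-2.30 ± 0.10). Fos, Fosb and the orphan receptor gene Nr4a1 were also high at 2 h only, with changes of -1.54 ± 0.11, -2.34 ± 0.23 and -1.65 ± 0.08.

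Egr1, Egr3, Jun and Ier2 behaved otherwise among the immediate early genes. Their 2 h libraries were within 2-fold of the control, and they were below it at 7 h. Egr1, a zinc finger factor of the growth response, had 97 and 114 CPM in the control, 80.9 and 78.7 at 2 h and 25.6 and 28.2 by 7 h (-1.57 ± 0.09), and Egr3 fell by 3.14. Btg2, an antiproliferative gene, ran opposite to the list, with 16.6 and 14.7 CPM in the control, 4.32 and 3.97 at 2 h, then 13.9 and 16.5 at 7 h (1.87 ± 0.13). Srf, the factor that binds serum response elements, rose by 0.75 ± 0.06. Myc, which drives growth genes, fell from 122 and 111 CPM at 2 h to 35.4 and 30.3 at 7 h, which overlapped the control at 35.2 and 41.5.

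Feedback inhibitors of MAP kinases fell with them. Of 16 tested genes for dual-specificity phosphatases (DUSP), Sprouty and SPRED proteins, 14 were called lower and 0 higher, and 10 fell past 2-fold, with a median of -1.31. Dusp5, a nuclear phosphatase of ERK, had 7.36 and 8.65 CPM in the control, 16.3 and 17.4 at 2 h and 2.54 and 2.43 by 7 h. The groups did not overlap, and 7 h was the lowest (-2.76 ± 0.12). Dusp6, its cytoplasmic counterpart, had 4.34 and 5 CPM in the control, 32.2 and 36.2 at 2 h, then 7.79 and 8.7 at 7 h, and so stayed above the control (-2.06 ± 0.10). Dusp4 and Spry4 fell too (-2.29 ± 0.15 and -2.39 ± 0.16), to levels near the control.

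Secreted growth factors and hormones were mostly lower at 7 h. Of 22 tested, 16 were called lower (14 past 2-fold) and 2 higher, with a median of -1.29. Hbegf, a ligand of the EGF receptor, had 55.7 and 57 CPM in the control, 162 and 169 at 2 h and 32.4 and 35.6 by 7 h, with no overlap (-2.29 ± 0.07). Angptl4, an inhibitor of lipoprotein lipase, was within 2-fold of the control at 2 h and fell by 2.20. The 2 that rose were Stc1 and, at a low level, Hgf (1.80 ± 0.26), the ligand of the MET receptor.

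CCN genes and other targets of YAP had 10 of 15 tested members called lower, 7 past 2-fold, and 3 called higher. Ctgf, a secreted matrix-associated protein of the CCN family, had 61.6 and 72.4 CPM in the control, 300.5 and 326 at 2 h, then 33.6 and 31.7 at 7 h. Its groups did not overlap, and 7 h lay below the control (-3.26 ± 0.09, adjusted p = 7.17e-12). Cyr61, of the same family, had 199 and 216 CPM in the control, 1231 and 1207 at 2 h and 458 and 437 by 7 h, and so stayed above the control (-1.45 ± 0.09). Ankrd1, a target gene of YAP, fell by 2.47 to levels that did not overlap 2 h. Tead1, the DNA-binding partner of YAP, ran the other way (0.77 ± 0.10). Ccn4 appeared in the table under 2 symbols, Ccn4 and Wisp1. Summed over both, it fell by 1.02, while the Ccn4 row alone, which held 36 and 0 expected counts at 7 h, gave -3.26.

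Proteases and matrix genes also leaned lower, with 11 of 20 tested proteases and inhibitors and 17 of 29 matrix genes called lower (background 33.7%). The medians were small, at -0.40 and -0.30, and 2 and 3 members were called higher. Past 2-fold, 3 proteases and 2 matrix genes were lower (background 9.96%), so the large falls below are of few members. Adamts1, a secreted protease that cleaves proteoglycans, had 167 and 169.7 CPM in the control, 572 and 622 at 2 h, then 63.6 and 60 at 7 h. The groups did not overlap, and the rise at 2 h turned into a level below the control (-3.27 ± 0.07). Adamts5 followed the same course (-2.32 ± 0.10). Thbs1, the matrix glycoprotein thrombospondin 1, had 3999 and 4215 CPM at 2 h and 1645 and 1549 by 7 h (-1.36 ± 0.07). Plat (tissue plasminogen activator), Timp3 and the basement membrane collagen gene Col4a2 rose, by 0.61 ± 0.07, 0.59 ± 0.07 and 0.47 ± 0.06.

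Chemokines, cytokines and genes of NF-κB feedback had 19 of 30 members called lower, 9 of them past 2-fold, and 3 higher, with a median of -0.44. Cxcl10, a chemokine, and Vcam1, an adhesion molecule, were within 2-fold of the control at 2 h and fell late (-2.34 ± 0.13 and -2.08 ± 0.09). Tnfaip3, an inhibitor of NF-κB, had 24.9 and 26.8 CPM in the control, 113 and 111 at 2 h, then 44.1 and 45.6 at 7 h, so it fell but stayed above the control (-1.32 ± 0.10). The 3 called higher (Nfkbiz, Cxcl5 and Birc3) changed by 0.21 to 0.23, and each lost its call in at least 3 alternative analyses. Ptgs2, cyclooxygenase 2, kept most of its rise, with 129.5 and 137 CPM in the control, 1594 and 1958 at 2 h and 1111 and 1060 by 7 h.

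**Figure D2:**
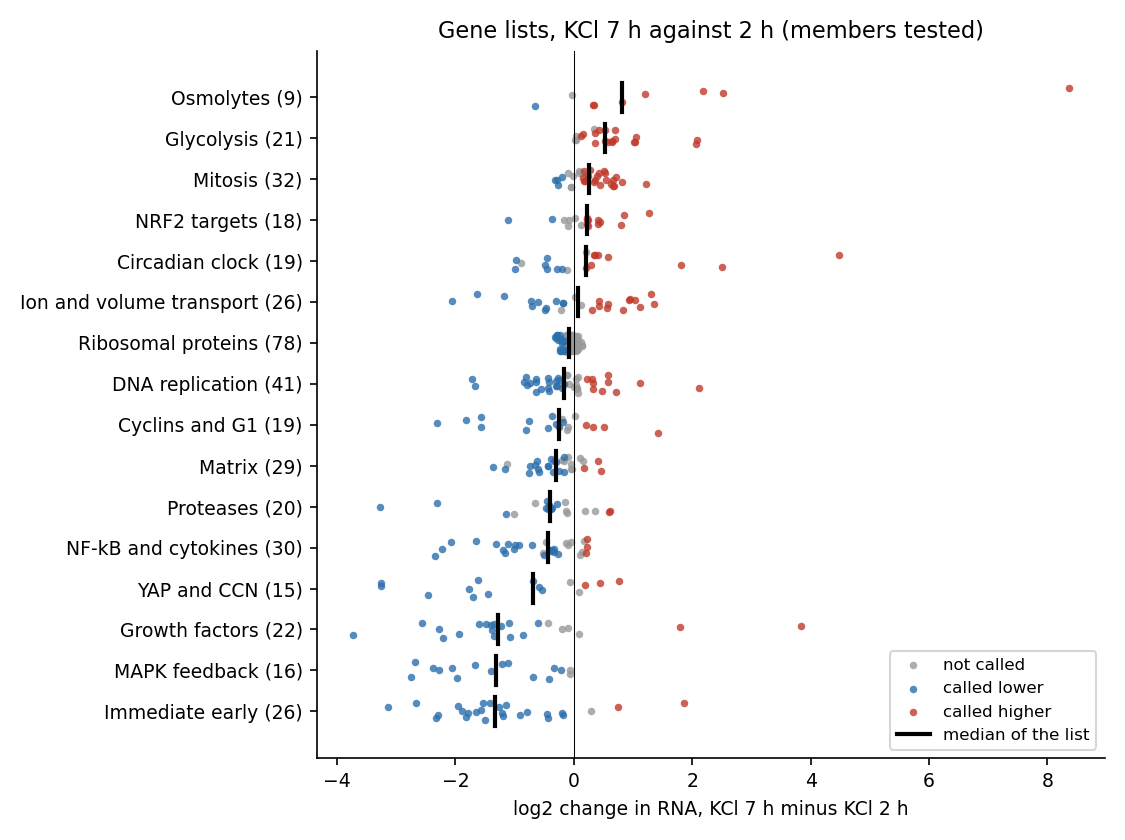
Log2 change in RNA from 2 h to 7 h of KCl for every tested member of 16 gene lists (number tested in parentheses); red and blue points passed the edgeR test, grey points did not, and black bars are list medians. Immediate early, MAP kinase feedback and growth factor genes lie mostly to the left (medians -1.33, -1.31 and -1.29), osmolyte and glycolysis genes to the right (0.81 and 0.52).

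Of 21 glycolysis genes tested, 17 were called higher and 0 lower (background 35.1% higher), 4 did not pass the test, 5 rose past 2-fold, and the median was 0.52. Pfkfb3, which makes the activator of phosphofructokinase, had 7.49 and 7.15 CPM in the control, 6.95 and 7.43 at 2 h, then 27.6 and 33.2 at 7 h. Its 2 h libraries lay near the control and its 7 h libraries apart (2.08 ± 0.11). The lactate exporter gene Slc16a3 rose by 1.05 ± 0.11, lactate dehydrogenase (Ldha) by 0.52 ± 0.06 and aldolase (Aldoa) by 0.52 ± 0.07. Txnip, an inhibitor of glucose uptake, was a different case. It had 23.4 and 19.6 CPM in the control, 2.02 and 1.79 at 2 h and 7.79 and 8.12 by 7 h, so its rise of 2.06 ± 0.15 was an incomplete return.

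Among proliferation genes, DNA replication and mitosis leaned opposite ways. Of 41 replication genes 21 were called lower and 10 higher (median -0.16, background 33.7% lower). Of 32 mitosis genes 21 were called higher and 4 lower (median 0.26, background 35.1% higher). Under upper quartile scaling these counts were 24 lower and 9 higher for replication, and 16 higher and 5 lower for mitosis. In footprints, 11 of 40 replication genes were called lower and 4 higher, and 3 of 32 mitosis genes higher and 0 lower. Ccnd1, cyclin D1, had 69.8 and 78.7 CPM in the control, 77.7 and 82.6 at 2 h, then 17.4 and 14.8 at 7 h. Control and 2 h overlapped, and both 7 h libraries were far lower (-2.31 ± 0.10). Ccne1 (cyclin E1) and Rrm2, a subunit of ribonucleotide reductase, also fell late (-1.72 ± 0.12 and -1.68 ± 0.06). Cdkn1a, the CDK inhibitor p21, fell as well (-1.57 ± 0.08). Gins3, a subunit of the replicative helicase complex, had 20.5 and 19.5 CPM in the control, 8.06 and 7.79 at 2 h and 32.5 and 36.2 by 7 h (2.11 ± 0.10). The mitotic kinase genes Aurka and Aurkb rose by 1.21 ± 0.07 and 0.82 ± 0.06.

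Chaperone and stress lists moved in part. Of 20 HSF1 chaperone genes 4 were called higher and 8 lower. Hsph1, an HSP110 chaperone, had 214 and 217 CPM in the control, 451 and 483 at 2 h, then 1217 and 1196 at 7 h (1.37 ± 0.06), and the small heat shock protein gene Cryab rose late (1.63 ± 0.08). Hspb8 fell (-1.65 ± 0.07). The near-identical genes Hspa1a and Hspa1b, between which reads are hard to divide, did not pass the test between the times (-0.04 ± 0.20 and 0.06 ± 0.11). Both were above the control at both times. Expected counts of Hspa1a were 1326 and 1111 in the control, 3378 and 3215 at 2 h, then 3291 and 3224 at 7 h. Those of Hspa1b were 4076 and 3586, 14123 and 15737, then 16791 and 14940. Of 20 genes of the ATF4 and CHOP response 10 were called higher and 4 lower, which became 6 and 5 under upper quartile scaling. Chac1, which degrades glutathione, had 6.17 and 5.24 CPM at 2 h and 23.3 and 24.9 by 7 h (2.08 ± 0.11), while Ppp1r15a (GADD34), which directs dephosphorylation of eIF2α, had 152 and 129.8 and 42 and 40.5 (-1.77 ± 0.08). Of 18 NRF2 targets 11 were called higher and 2 lower, led by Srxn1 (1.27 ± 0.07).

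Counts for the remaining lists were 8 higher and 8 lower of 21 p53 targets, 10 and 9 of 25 cholesterol genes, 2 and 5 of 14 fatty acid genes, 5 and 5 of 10 paraspeckle genes, and 7 and 9 of 20 tRNA synthetases (3 and 9 under upper quartile scaling). Amino acid transporters had 7 higher and 8 lower of 17, actin genes 6 and 11 of 25, TGF-β and ID genes 4 and 9 of 20, and G1 cyclins with the MYC network 4 and 11 of 19 (2 and 13 under upper quartile scaling). Chaperones of the endoplasmic reticulum and its stress response had 2 higher and 10 lower of 20, and splicing kinases with SR proteins 7 and 4 of 19. Of 78 ribosomal protein genes 17 were called lower and 0 higher, and all lay between -0.31 and 0.14. The count of 17 rests on small changes: it was 36 under upper quartile scaling, 8 without replicate 1 of 2 h, 27 without replicate 1 of 7 h and 4 without replicate 2 of 7 h. Clock genes had 9 higher and 7 lower of 19, a lean that turned to 7 and 8 under upper quartile scaling and to 5 and 5 with limma on log2(TPM + 0.1). Among them Ciart, a repressor of the clock, rose by 2.51 ± 0.15.

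The genes were sorted into time-course classes by calls past 2-fold at 2 h against control, at 7 h against control, and between the times. Past 2-fold against the control, 12.7% of tested genes were called at 2 h and 18.4% at 7 h. They split into 7.17% above and 5.56% below at 2 h, and 10.7% above and 7.78% below at 7 h. A transient rise (up at 2 h, then down) was found for 501 genes (3.78% of those tested) and a transient fall for 533 (4.02%). Late rises, which were not called past 2-fold against the control at 2 h but may have risen by less (as Hspa4l and Aqp1 had), numbered 596 (4.50%), and late falls 600 (4.53%). A rise at both steps was found for 59 genes and a fall at both steps for 8. Of genes that differed from control at both times and not between them past 2-fold, 235 were up and 68 down. A further 599 differed between the times without being called past 2-fold against the control at either. The 2 h calls and the 7 h against 2 h calls share libraries, so an error in the 2 h libraries alone enters both with opposite sign. When genes averaging under 1 in log2 CPM were left out, transient rises numbered 221 and late rises 314, so many genes of both classes are low.

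Most genes with a transient change were not called past 2-fold against the control at 7 h, which does not show that all of them were within 2-fold. Of the 501 transient rises, 132 were still up past 2-fold against the control at 7 h and 12 had gone below it by as much. Of the 533 transient falls, 3 were still down past 2-fold and 43 had overshot. The median log2 levels against the control were 3.01 at 2 h and 0.61 at 7 h for transient rises, and -1.61 and 0.17 for transient falls. Among the sustained rises were Ptgs2, the vasodilator peptide gene Adm, the GTPase gene Gem and Ier3. Among the sustained falls were the endothelial and quiescence factor gene Klf2 (14.4 and 14.8 CPM in the control, 2.39 and 1.79 at 2 h, then 2.39 and 2.74 at 7 h) and Fam43a. Slc30a1, a zinc exporter, was the 1 gene averaging 3 or more in log2 CPM that fell at both steps (9.08 and 10.3, 4.36 and 4.29, then 1.5 and 1.68 CPM).

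**Figure D3:**
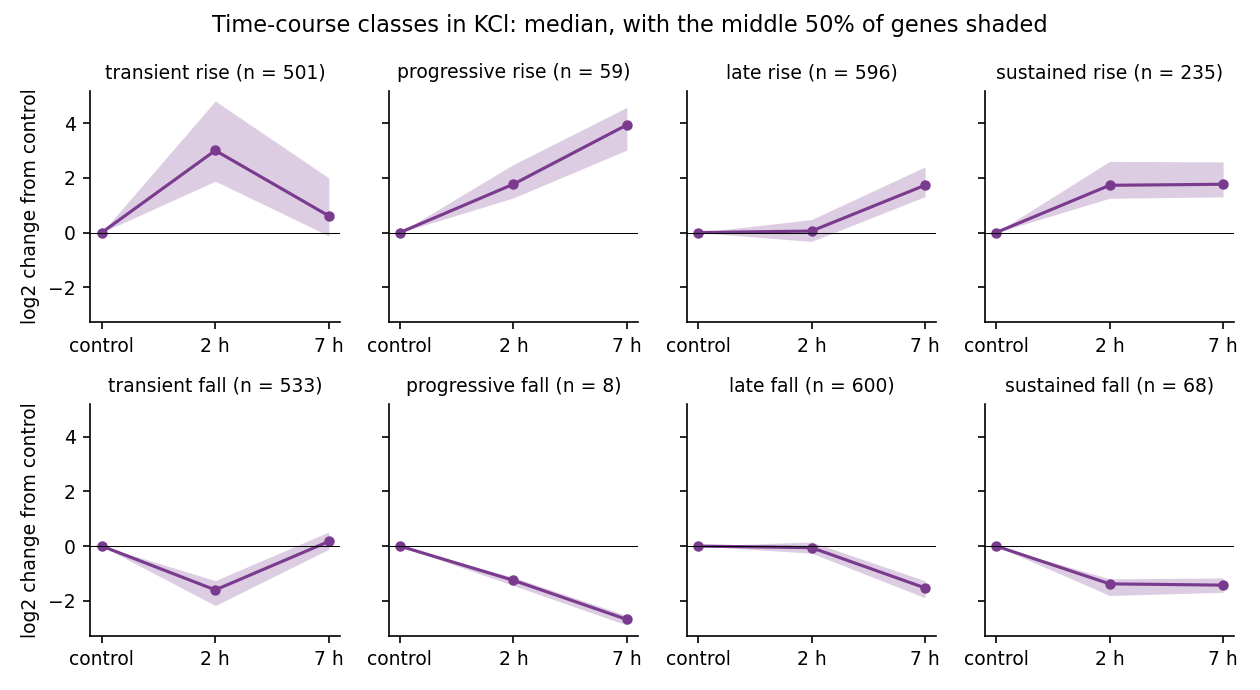
Median log2 change from the control at 2 h and 7 h of KCl for the 8 time-course classes, with the middle 50% of genes shaded and the number of genes in each title. The class rules set the shape of each line and, by asking for calls past 2-fold, also bear on its size. The medians, 3.01 at 2 h for transient rises and 3.94 at 7 h for progressive rises, describe genes picked for such changes.

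Gjb2, on chromosome 14 (57098602 to 57104702), encodes the gap junction protein connexin 26. It had 315 and 296 CPM in the control, 337 and 338 at 2 h and 18.6 and 17.3 by 7 h. Its 2 h libraries were slightly above the control, and both 7 h libraries were far below (-4.23 ± 0.07, adjusted p = 1.36e-13). Enox2, a cell surface oxidase, also fell late (-3.17 ± 0.15). Arrb1, which encodes β-arrestin 1, was a late rise of an abundant gene, with 24.7 and 26.6 CPM at 2 h, then 166 and 174 at 7 h (2.73 ± 0.07). The adenylate kinase gene Ak4 rose late too (2.96 ± 0.13).

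Zinc finger genes took 6 of the 10 largest rises, namely Zfp111, Zfp760, Zfp329, Zfp626, Zfp937 and Zfp87. Most numbered Zfp genes encode DNA-binding proteins with arrays of C2H2 fingers, many with a KRAB repressor domain. Zfp111, on chromosome 7 (24193215 to 24208149), had 18.9 and 19 CPM in the control, 1.44 and 1.63 at 2 h and 24.5 and 24.5 by 7 h. The 2 h libraries were about an order of magnitude below the others, and 7 h was above the control (3.99 ± 0.11, adjusted p = 8.42e-12). Zfp626 had 13.8 and 14.2 CPM in the control, 2.02 and 2.03 at 2 h, then 29.9 and 30.1 at 7 h, and thus overshot the control further (3.89 ± 0.12). Jrk, another nuclear DNA-binding protein gene, and Lcmt2, a tRNA-modifying methyltransferase gene, showed the same dip, with rises of 3.74 ± 0.15 and 3.69 ± 0.15 from 2 h.

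Because of this, all genes with a numbered Zfp symbol were counted, a set chosen after these values were seen and therefore described with no test. Of 391 such symbols in the table, a total of 353 were tested, and 284 were called higher, 221 past 2-fold, against 30 lower (10 past 2-fold). Their median change was 1.39 from 2 h to 7 h, after -1.05 at 2 h against the control, and 0.23 at 7 h against the control. The class of transient falls held 160 of them. Zinc finger genes lie in clusters of similar copies, so the division of reads between close relatives is uncertain for single genes. The median genomic length was 17.3 kb for these genes and 23.7 kb for all tested genes with a length in RefSeq, and 13.2 kb for the transient falls as a class.

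**Figure D4:**
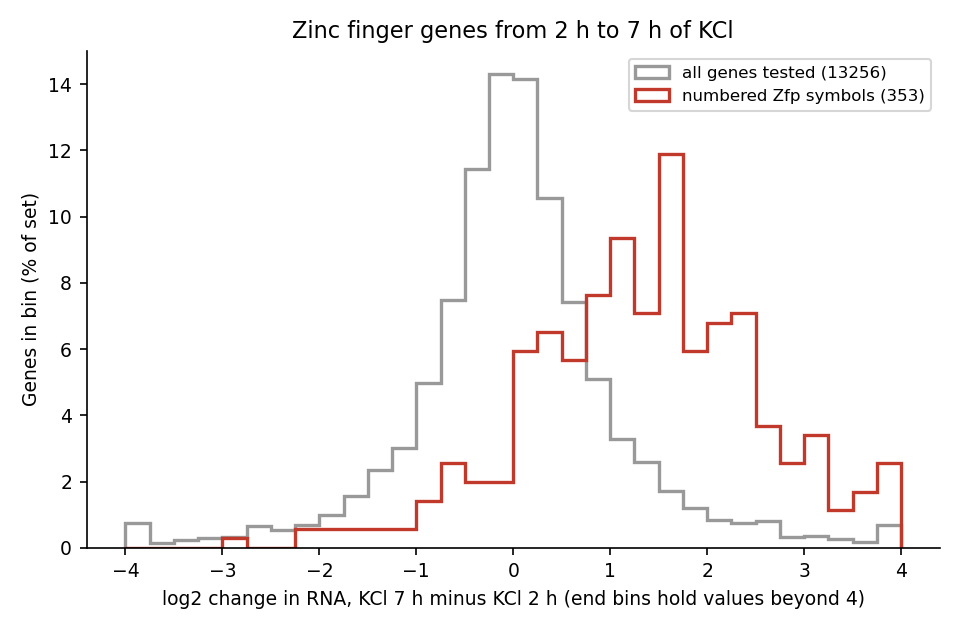
Distribution of the log2 change from 2 h to 7 h of KCl for 353 genes with a numbered Zfp symbol (red) and all 13256 genes tested (grey), as a percentage of each set per bin of 0.25. The red curve lies to the right, with a median of 1.39 against 0.

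Neat1, the long noncoding RNA that builds nuclear paraspeckles, lies on chromosome 19 (5824708 to 5845480). It had 950.5 and 1064 CPM in the control, 82.3 and 49.5 at 2 h and 698 and 619.8 by 7 h. The 3 groups did not overlap, and at 7 h Neat1 had returned to below the control (3.32 ± 0.18). Malat1, the neighbouring nuclear RNA, climbed at both steps instead, with 306 and 337 CPM in the control, 496 and 641 at 2 h, then 974 and 884 at 7 h. The counts are per gene and from polyadenylated RNA. Forms of Neat1 or Malat1 that differ in their 3′ ends thus cannot be told apart, and paraspeckles were not measured. Pspc1, a paraspeckle protein gene, fell late (-1.74 ± 0.07). Other regulators with a dip at 2 h were Clk2, a kinase of SR splicing proteins (1.41 ± 0.10), Trp53inp1 (2.47 ± 0.12) and Troap, a spindle protein gene (2.40 ± 0.08).

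Promoters of the transient falls held the cAMP response element, TGACGTCA on either strand, in 25 of 512 cases (4.88%), against 2.87% for all genes tested and 1.79% for the table. The letters CCAAT on either strand were in 48.2% of them, against 37.5% and 37.4%. The numbered Zfp genes, of which 160 are transient falls, had similar shares as a list. Of their 355 promoters 47.3% held CCAAT and 4.23% the cAMP response element. Troap, on the plus strand at chr15:99074723-99075022, is shown as a well expressed transient fall with a match. The match, in capitals, begins 46 bases before the start of transcription, and no CCAAT overlaps it. The shares are descriptions only. In all, 8 motifs were searched in 8 classes and 29 lists, which gives 296 shares, and those printed here and for TonE, other than that of the osmotic list, were picked after they were seen. The others were the AP-1 site TGANTCA, the ATF4 element TGATGNAA, the E2F sites TTTGGCGC and TTTCGCGC, the cell cycle element TTTGAA and the SREBP site TCACNCCAC. For AP-1 the share was 9.03% of 465 promoters of transient rises and 5.37% over all genes tested.
Troap: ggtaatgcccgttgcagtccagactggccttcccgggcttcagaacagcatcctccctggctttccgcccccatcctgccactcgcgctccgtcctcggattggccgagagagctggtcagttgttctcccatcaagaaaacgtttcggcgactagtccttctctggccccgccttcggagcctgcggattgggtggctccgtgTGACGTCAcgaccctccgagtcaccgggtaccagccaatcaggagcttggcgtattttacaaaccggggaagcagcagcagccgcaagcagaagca

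The authors' calls of transcription past gene ends peaked at 2 h. DoG calls numbered 1551 and 1615 in the control libraries, 2042 and 2220 at 2 h, then 1520 and 1498. Read-in calls, where such a transcript enters the next gene, were made separately, over 6399 pairs of neighbouring genes. They numbered 36 and 35 in the control, 174 and 189 at 2 h, then 59 and 65. The 2 h libraries stood above the others in both counts. The 7 h libraries were below the control in DoG calls and above it in read-in calls.

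Among the classes, the share of genes with a read-in call was highest in the transient rises. Of the 298 transient rises that are the downstream gene of a pair, 24 (8.05%) had a read-in call in both 2 h libraries, and 20 of these had none at 7 h. Over all 5105 tested genes in that position, 137 (2.68%) had a call in both 2 h libraries, and 45 in both 7 h libraries. Of 232 late falls in that position, 9 (3.88%) had a call in both 2 h libraries, near the share over all tested genes, and 7 of these had none at 7 h. Among the largest falls, Apol8 (downstream of Myh9) had 0.476 and 0.419 CPM in the control, 31.4 and 26.2 at 2 h and 2.18 and 1.5 by 7 h, and Pygm (downstream of Sf1) had 0.331 and 0.734, 30.4 and 29.4 and 2.89 and 3.18. Both carried a read-in call in the 2 libraries of 2 h and in none of 7 h. The classes and the read-in calls come from the same RNA libraries. More calls at 2 h than at 7 h among transient rises may thus be partly set by the class rule. The part of read-in in these values was not tested. Without every gene that had a read-in call in any KCl library, an alternative added after seeing the data, 471 transient rises and 531 transient falls remained.

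Of the 10 largest falls, 3 belonged to split gene symbols, Tent4b, Ints13 and, as given above, Ccn4. The expected counts of Tent4b were 0 and 81 without KCl, 1095 and 1447 at 2 h, then 34 and 0, and the table also holds the older symbol Papd5 for this gene, which rose by 1.45 ± 0.09. Summed over both rows, the gene rose by 0.25 from 2 h to 7 h (edgeR, adjusted p = 0.0037), so the value of -6.25 for the Tent4b row is not that of the gene. Ints13 and its older symbol Asun gave -3.60 and 1.26 apart and 0.29 when summed. The 2 replicates of a group differed widely in these rows, with 344 and 1941 counts of Ints13 at 2 h.

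Ribosome footprints, the mRNA fragments covered by ribosomes, were also sequenced after 2 h and 7 h of KCl, with 2884344 to 3775978 expected counts in a library. Of 10545 genes tested in footprints, 2170 (20.6%) differed between 7 h and 2 h, a count that fell to between 845 and 1322 when any 1 of the 4 libraries was left out, lowest without replicate 2 of 2 h. Of 1065 genes with RNA higher past 2-fold and a footprint test, 547 were called higher and 1 lower in footprints (background 12.1% higher). Of 739 with RNA lower past 2-fold, 325 were called lower and 1 higher (background 8.43% lower). Across the 10480 genes tested in both, the changes correlated at a Pearson r of 0.657. Genes are not independent replicates, and this value is a description.

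Slc6a12 footprints stood at 1.01 and 0 CPM at 2 h and 109 and 59.3 at 7 h, and Akr1b3 footprints at 550.1 and 496 and 3830 and 3853, with a log2 change of 2.88 ± 0.26. Hspa4l, Stc1 and Zfp111 rose in footprints by 2.59 ± 0.19, 3.83 ± 0.58 and 3.33 ± 0.41. Gjb2 footprints went from 95.3 and 148 to 12 and 15.9 CPM, a change of -3.11 ± 0.42, and Ctgf fell by 3.09. Of the 20 genes with the largest RNA changes, 17 were tested in footprints, 14 were called in the direction of the RNA and 1, the split symbol Ints13, in the opposite one. Nfat5 differed from its RNA in that its footprints rose (0.98 ± 0.25, adjusted p = 0.015) while its RNA did not pass the test; the difference between the readouts was not tested.

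**Figure D5:**
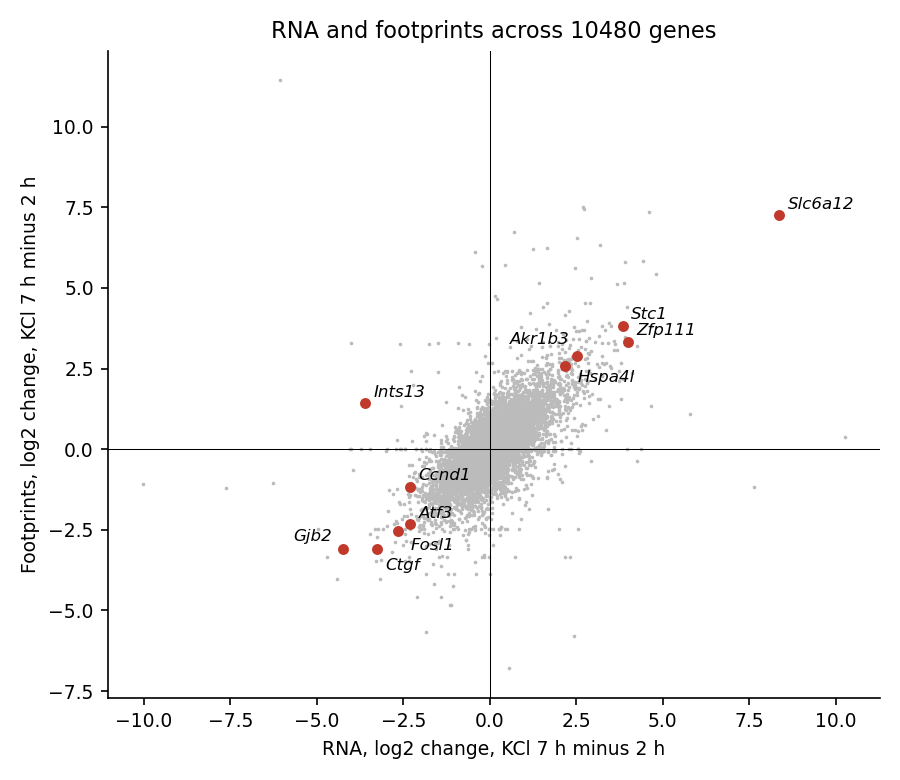
Log2 change from 2 h to 7 h of KCl in RNA (horizontal) and in footprints (vertical) for 10480 genes tested in both, with genes of the text in red. Slc6a12, Akr1b3, Stc1 and Zfp111 lie at the upper right, Gjb2, Ctgf and Fosl1 at the lower left, and the split symbol Ints13 at the upper left.

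The course from 2 h to 7 h was not the same under H2O2, the oxidant of the same experiment. A test of the difference between the changes in KCl and in H2O2, an interaction term in the edgeR fit, called 9009 genes (68.0%). In 35.5% of tested genes the KCl change lay above that in H2O2, and in 32.5% below. Whether or not a gene was called in it, 418 rose past 2-fold under both agents and 469 fell under both, while 157 rose in KCl and fell in H2O2 and 170 did the reverse. A further 1001 rose and 681 fell past 2-fold in KCl without a call past 2-fold in H2O2, and of these 907 and 606 were called in the interaction test. Tnxb, which rose late in KCl, had 6.6 and 6.74 CPM after 2 h of H2O2 and 2.46 and 2.14 after 7 h, a difference between the changes of 5.11 ± 0.19. Arrb1 and Slc1a3 likewise fell in H2O2, with differences of 4.18 ± 0.11 and 4.41 ± 0.12. The fall of Fosl1 was not shared, with 217 and 223 CPM after 2 h of H2O2 and 278 and 281 after 7 h (difference -3.01 ± 0.11), whereas Ctgf fell under both agents (difference 0.15 ± 0.12, adjusted p = 0.29).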

How the data were processed

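RNA of 10 libraries (control, H2O2 and KCl, each agent at 2 h and 7 h) entered one fit, so that groups share one estimate of the spread. The authors deposited expected counts per gene, whole numbers used as they stand, and TPM (scaled for transcript length) of the same libraries, made with STAR, RSEM and Bowtie on mm10, per the submitters' processing notes, which give no versions or order. The authors also deposited true or false DoG and read-in calls per gene pair and library, and a read-in estimate (a ratio without its formula), which was tabulated for named genes and not printed. A total of 6 footprint columns carry no labelled name and stayed out.

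The test was edgeR 4.0.16 quasi-likelihood (R 4.3.3) with TMM scaling and filterByExpr. P-values were adjusted by Benjamini-Hochberg across every tested gene, with a threshold of 0.05. CPM is per 1000000 counts after TMM, except for the cell type markers, where the library total was used as it stands. The code was tested on simulated data. Log2 changes carry the standard error of the fit. Depth of the KCl RNA libraries was 24441877 to 30094091 expected counts.

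Named genes were the 10 largest rises and 10 largest falls with separate libraries and an average log2 CPM from 3, up to 4 per class, up to 3 per list and direction (average log2 CPM of at least 1), and 5 in each direction of the KCl and H2O2 difference, leaving out clone-like symbols; some genes that this rule names are not reported here. Other genes named (Slc6a12, Nfat5, Slc5a3, Slc6a6, Sgk1, Fos, Nr4a1, Egr1, Jun, Ier2, Dusp6, Cyr61, Hgf, Ldha, Aldoa, Hspa1a, Hspa1b and Troap) were chosen after their values were seen, most of them as list members. Members, 29 lists and classes were chosen with earlier results of these data known. The list of 13 mitochondrial mRNAs had no row in the table. Symbols matched RefSeq (GRCm38.p6) for 12888 of 13256 tested genes.

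Alternatives were DESeq2 1.42.0, its size factors in edgeR, upper quartile scaling, no filter (at least 1 count in all), a filter at average log2 CPM 1, limma 3.58.1 on log2(TPM + 1) and log2(TPM + 0.1), fewer groups in the fit, the replicate number as a block, split symbols summed, and each library left out.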

Additional observations from a re-analysis of the deposited data

Results flagged for a closer look

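Under KCl and under H2O2 the change from 2 h to 7 h differed by the interaction test in edgeR for 9009 genes. The genes reported here, from those named for the largest differences, had changes that differed by more than 4 on the log2 scale. Mmp15, a membrane-bound metalloproteinase gene, had 1.11 and 0.883 CPM after 7 h in KCl but 176 and 179 in H2O2 (a difference of -7.26), and Sytl1 0.25 and 0.353 and 55.7 and 54.7 (-6.84). Zfp750 differed by -7.01, but with at most 1 expected count in any KCl library this value depends on the fit, and it lost its call without replicate 2 of KCl at 2 h. Tent4b differed by -7.25 as a split symbol, and by 0.27 once its rows were summed.

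In the other direction, Prss35, a gene for a protease-like protein, had 17.1 and 18 CPM at 2 h, then 96.3 and 93.3 by 7 h in KCl but 14.3 and 16 and 1.61 and 1.74 in H2O2, a difference of 5.62. Tnxb differed by 5.11, Slc1a3 by 4.41 and Arrb1 by 4.18.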

How the results depend on the processing

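The number of genes called between 7 h and 2 h stayed within 1.5 times in every alternative run, and was 9213 with the replicate block. The replicate numbers did not pair the libraries (correlation of deviations 0.0098 between KCl 2 h and 7 h, and -0.053 to 0.054 over all group pairs), and the block moved no count by 1.5 times. With limma on log2(TPM + 1), which shrinks low genes, calls past 2-fold numbered 1726, 1015 higher and 711 lower. That setting gave 198 transient rises, 344 transient falls, 10 progressive rises, 1 progressive fall, 304 late rises, 389 late falls, 82 sustained rises and 40 sustained falls, and log2(TPM + 0.1) gave 36 progressive rises. Leaving out genes with an average log2 CPM under 1 gave 221 transient rises, 24 progressive rises, 5 progressive falls, 314 late rises, 131 sustained rises and 44 sustained falls. Upper quartile scaling gave 15 progressive and 105 sustained falls. A threshold of 1.5-fold, lower by construction, gave 1002 transient falls, 185 progressive rises, 74 progressive falls, 1116 late rises, 1330 late falls, 475 sustained rises and 252 sustained falls. Without 1 library in turn, footprint calls ranged from 845 to 1322, RNA calls from 8248 to 8618, transient rises from 436 to 500 and progressive falls from 6 to 11.

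Of 840 list counts over all alternatives, 31 moved by over 1.5 times. Of 178 named genes, 13 lost their call or changed sign in some alternative. When split rows were summed, Tent4b went to 0.25 and Ints13 to 0.29, and the Tent4b difference between agents to 0.27. Hist1h2ap, not called, ranged from -0.27 to 0.21 when a library was left out. Depth limits genes with few counts: of genes called past 2-fold, 15 were at 0 in both 2 h libraries and 32 in both 7 h libraries.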

Other observations

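The classes differed in the genomic length of their genes, taken from RefSeq (GRCm38.p6) and described with no test. The median length was 23.7 kb over all tested genes with a length. It was 14.6 kb for transient rises, 13.2 kb for transient falls and 9.04 kb for sustained falls, while late rises had a median of 36.0 kb and late falls 20.7 kb. At least 95.8% of the genes in each of these classes had a length.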
